A study of Rattus norvegicus with 24 samples.

Results

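The comparison described here sets 3 libraries labelled α1ACT at 24 h against 3 libraries labelled vector at 24 h, which is 6 of the 24 libraries of the series. The libraries were chosen by their sample labels alone. All are total RNA of PC12 cells, a line from a pheochromocytoma of the rat adrenal medulla, taken at passages 18 to 20. The α1ACT cells stably express human α1ACT from pcDNA3, and the vector cells carry empty pcDNA3. Each genotype is a single stable line, so genotype and line cannot be told apart. No treatment is labelled, the medium was the same, and the event from which the 24 h were counted is not stated. Nothing in the labels says that the 3 replicates of a group came from separate cultures, so p-values here measure only the spread between these libraries, which may be technical.

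The names of the deposited files give the 6 libraries another identity. By those names the 3 libraries labelled α1ACT at 24 h are the vector line at 10 d, and the 3 labelled vector at 24 h are the vector line at 3 d. The names disagree with the labelled time in 18 of the 24 libraries, these 6 included, and with the labelled line in 12, including 3 of these 6. Each value below therefore has 2 readings. By the labels it is α1ACT over vector at 24 h, and by the file names it is 10 d over 3 d within the vector line. The numbers are the same under both, and the text writes "α1ACT" and "vector" as the labels do. The deposited tables hold rat gene symbols, and the human transgene was not analysed here, so no value checks the labelled genotype. Rat Cacna1a, the rat gene whose human counterpart encodes α1ACT, had 12.04, 10.1 and 12.8 CPM in the α1ACT libraries, against 16.4, 15.6 and 18.7 CPM in the vector libraries (log2 fold change -0.53 ± 0.12, edgeR adjusted p = 0.000461), where CPM (counts per 1e6 counts on genes) is the level used throughout.

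α1ACT is the carboxy-terminal protein made from the second cistron of the calcium channel gene CACNA1A, and it enters the nucleus as a transcription factor. PC12 cells make and store catecholamines like adrenal chromaffin cells, divide in serum, and stop dividing when nerve growth factor drives them to grow neurites. Genes of the cell cycle are switched in groups: the E2F factors act on genes of DNA replication before S phase, and the MuvB and B-Myb or FOXM1 complexes act on genes of mitosis through the CHR element of their promoters. The SREBP factors act on genes of sterol and fatty acid synthesis. Unfolded protein in the endoplasmic reticulum (ER) activates IRE1, PERK and ATF6, and ATF6 with NF-Y acts through the ER stress element. The kinases of eIF2, PERK among them, raise translation of ATF4, which acts on genes of amino acid uptake and synthesis through an amino acid response element.

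The promoters of 5 genes from the groups that moved most are shown because each holds the element for which its group is known. They are RefSeq sequences of build GRCr8, 250 bases before to 50 bases after the gene start, written 5′ to 3′ on the gene's strand. Build GRCr8 is not the build of the counts, so nothing measured here is placed on these coordinates. Capitals mark the matches of the motif named for each gene. Cenpw, a centromere protein, and Top2a, the topoisomerase that untangles chromosomes, are shown with the CHR element, TTTGAA or its complement TTCAAA, and Top2a also with the CCAAT box of NF-Y. Gins1, a subunit of the replicative helicase, is shown with an E2F site, TTTGGCGC, which is found on both strands there because the letters overlap as a palindrome. Hspa5, the ER chaperone BiP, is shown with the ER stress element, CCAAT and CCACG with 9 bases between them, whose first part is itself a CCAAT box. Pycr1, an enzyme of proline synthesis, is shown with the amino acid response element TGATGNAAT. Cenpw lies at chr1:29353720-29354019 on the plus strand, Top2a at chr10:84473044-84473343 on the minus strand, Gins1 at chr3:160184670-160184969 on the plus strand, Hspa5 at chr3:38452766-38453065 on the plus strand and Pycr1 at chr10:106420763-106421062 on the minus strand.
Cenpw: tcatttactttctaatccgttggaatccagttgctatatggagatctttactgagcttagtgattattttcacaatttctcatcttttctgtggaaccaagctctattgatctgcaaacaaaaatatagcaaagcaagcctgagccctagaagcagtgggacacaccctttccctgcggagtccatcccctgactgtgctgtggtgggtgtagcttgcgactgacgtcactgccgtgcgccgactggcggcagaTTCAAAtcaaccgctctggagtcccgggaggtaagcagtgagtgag
Top2a: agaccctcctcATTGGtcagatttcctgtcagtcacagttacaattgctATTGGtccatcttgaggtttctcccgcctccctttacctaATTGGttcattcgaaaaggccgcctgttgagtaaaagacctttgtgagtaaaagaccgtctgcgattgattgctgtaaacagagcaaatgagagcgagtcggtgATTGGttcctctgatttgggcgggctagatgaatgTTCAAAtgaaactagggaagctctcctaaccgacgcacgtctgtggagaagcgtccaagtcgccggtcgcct
Gins1: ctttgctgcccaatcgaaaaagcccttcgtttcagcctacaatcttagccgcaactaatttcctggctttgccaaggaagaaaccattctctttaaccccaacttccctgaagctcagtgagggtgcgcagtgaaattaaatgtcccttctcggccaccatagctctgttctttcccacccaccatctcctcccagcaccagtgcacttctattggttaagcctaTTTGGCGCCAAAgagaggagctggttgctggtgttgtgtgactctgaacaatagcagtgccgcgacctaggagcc
Hspa5: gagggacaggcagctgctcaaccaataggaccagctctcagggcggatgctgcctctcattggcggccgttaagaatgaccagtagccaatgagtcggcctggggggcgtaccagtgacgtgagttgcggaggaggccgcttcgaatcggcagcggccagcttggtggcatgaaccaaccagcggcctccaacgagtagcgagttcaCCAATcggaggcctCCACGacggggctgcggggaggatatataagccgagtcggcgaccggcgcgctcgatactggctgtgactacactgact
Pycr1: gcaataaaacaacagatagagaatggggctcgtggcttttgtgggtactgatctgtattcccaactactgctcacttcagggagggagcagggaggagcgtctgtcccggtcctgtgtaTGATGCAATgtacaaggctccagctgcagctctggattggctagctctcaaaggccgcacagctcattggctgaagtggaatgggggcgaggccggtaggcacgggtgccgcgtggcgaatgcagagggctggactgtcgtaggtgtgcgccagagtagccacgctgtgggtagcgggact

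Counts on genes ran from 10427505 to 12577776 in the α1ACT libraries and from 10893364 to 14486248 in the vector libraries. Reads outside annotated genes were 51.1% to 52.2% in α1ACT and 49.99% to 50.6% in vector libraries, and the 10 most counted genes took 6.59% to 6.996% in α1ACT libraries, against 5.98% in each vector library. Alignments that were not unique numbered 90.9 to 98.2 per 100 assigned, ambiguous and outside reads in α1ACT libraries, and 82.96 to 89.6 in vector libraries. Counts on genes overlapped between the groups, whereas each of the other measures moved with them. The part of these measures in the results was not tested. The 3 α1ACT libraries lay 0.2499 to 0.309 from each other and the 3 vector libraries 0.205 to 0.295, as the root mean square difference in log2 CPM, and libraries of different groups lay 0.485 to 0.643 apart. Pairs within a group differed by a chi-square of 1.98 to 8.46 per degree of freedom, above sampling noise, so each library was counted as 1 sample. Chromaffin markers were present in every library: the summed level of the 11 markers listed was 26782 to 30608 CPM in α1ACT and 21690 to 22875 CPM in vector libraries. Markers of immune cells summed to 1.28 to 2.11 CPM in α1ACT and 2.07 to 3.16 CPM in vector libraries, with Ptprc, Aif1, Itgam and Tyrobp at 0 in all 6. The fibroblast markers Col1a2, Pdgfrb, Lum and Acta2, the epithelial keratins Krt5 and Krt14 and the Schwann factor Sox10 were also at 0 in all 6. Simple epithelial keratins were not: Krt18 had 57.9, 63.2 and 62.2 CPM in the α1ACT libraries, against 25.8, 29.2 and 27.8 CPM in the vector libraries (log2 fold change 1.15 ± 0.19, edgeR adjusted p = 1.1e-05). Krt8 had 454, 460.4 and 449 CPM in the α1ACT libraries, against 267, 268 and 257 CPM in the vector libraries (log2 fold change 0.78 ± 0.10, edgeR adjusted p = 2.69e-07). Both keratins were higher in every α1ACT library, while 3 other epithelial genes, Epcam, Cldn4 and Cldn7, fell, with log2 fold changes of -0.43, -0.57 and -0.54. The 9 epithelial markers summed to 773 to 793 CPM in α1ACT and 650.2 to 684 CPM in vector libraries, and the 10 mesenchymal markers to 791 to 801 CPM in α1ACT and 667 to 722 CPM in vector libraries. Nearly all of the mesenchymal sum was 1 gene, Thy1, with 788, 796 and 786 CPM in the α1ACT libraries, against 713, 658 and 694 CPM in the vector libraries. S100a4 went the other way, at -0.91 ± 0.21 on the log2 scale, and the other mesenchymal markers were low or at 0. The 10 Schwann and glial markers summed to 47.8 to 50.8 CPM in α1ACT and 60.2 to 62.5 CPM in vector libraries, with 3 of them high enough to test. Apart from the immune sum, whose ranges overlapped, these sums move with the groups, and their part in the results was not tested. In bulk RNA, fewer cells of a type and less RNA per cell cannot be told apart.

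Most of the measured transcriptome differed between the groups. Of 9994 genes tested with edgeR's quasi-likelihood test at a Benjamini-Hochberg adjusted p of 0.05, 5542 passed (55.5%), with 2662 higher (26.6%) and 2880 lower (28.8%) in α1ACT. Most differences were small: 618 genes (6.18%) passed with a change of at least 2-fold, 349 of them higher (3.49%) and 269 lower (2.69%), and 79 (0.79%) with at least 4-fold, 33 higher (0.33%) and 46 lower (0.46%). The libraries of the groups did not overlap in 6039 genes (60.4%), called or not, and in 5285 of the called genes (52.9% of those tested). The median log2 fold change over all tested genes was -0.02. A count for any gene group below, or a lack of overlap in a gene, is to be read against these shares.

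**Figure D1:**
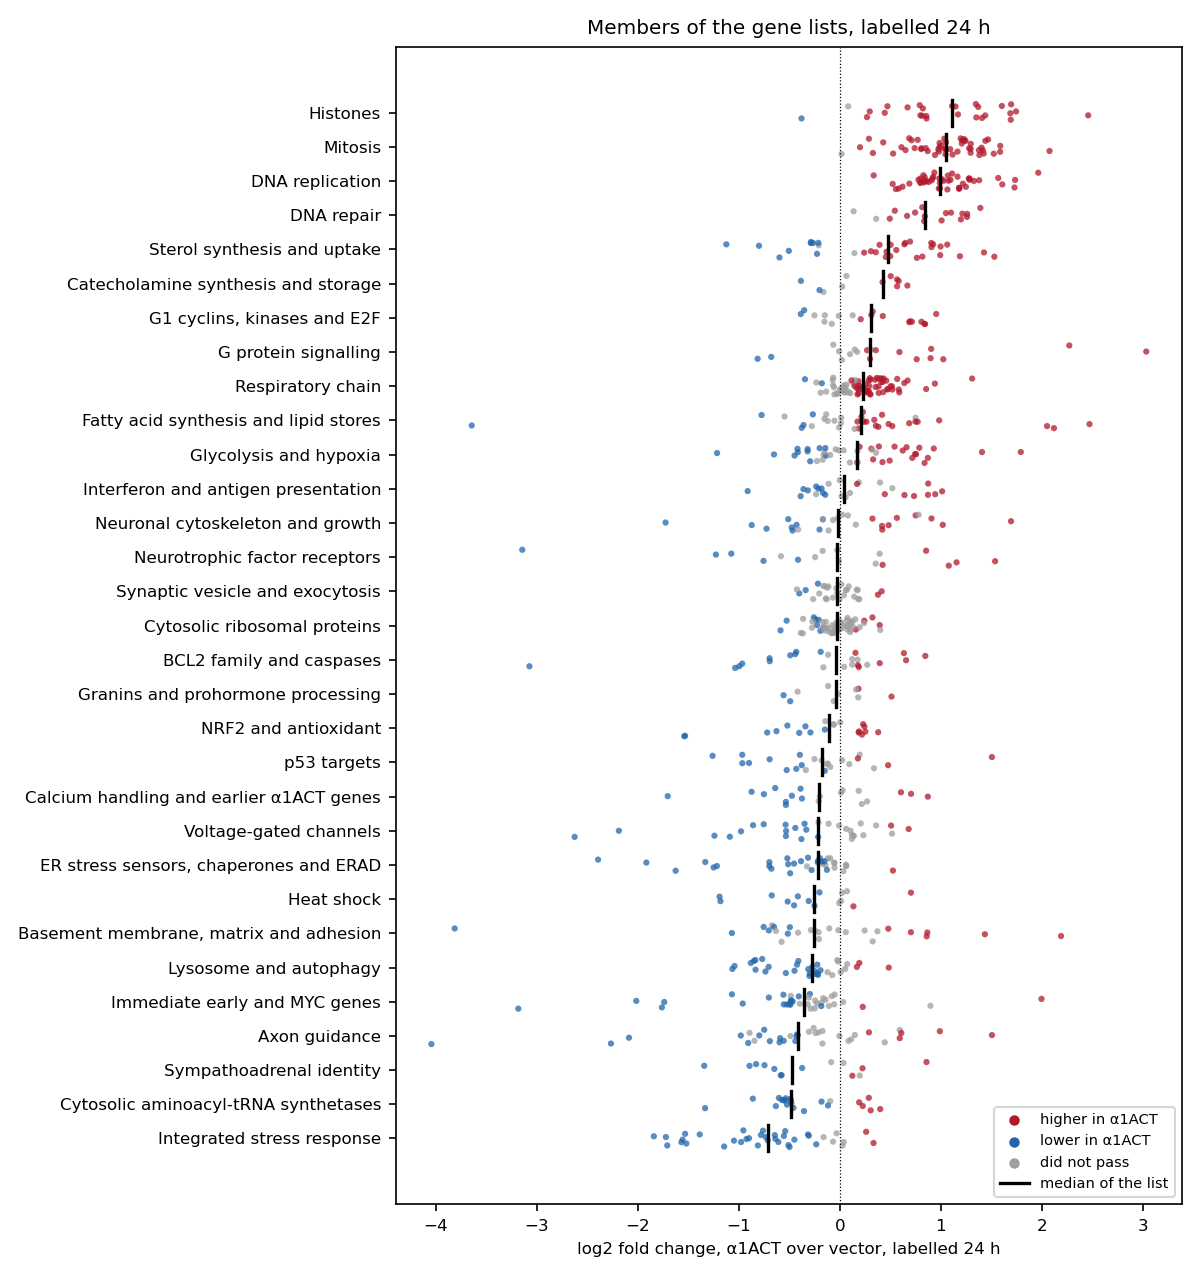
Log2 fold change of α1ACT over vector at the labelled 24 h (x axis) for the tested members of each gene list (rows, ordered by median). Points are genes, red where higher and blue where lower in α1ACT at an edgeR adjusted p under 0.05, grey where the test was not passed, and black bars are list medians. The cell division lists sit at the top with medians near 1, and the integrated stress response sits at the bottom with a median of -0.71; 4 members under 0.3 CPM in both groups are not drawn.

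Genes of DNA replication were higher as a block. All 47 listed genes were tested and all 47 rose in α1ACT, with a median log2 fold change of 0.99 and a range of 0.34 to 1.97, while 26.6% of all tested genes rose. The 11 genes that license origins, the MCM helicase and its loaders, had a median of 0.99, the 9 that fire origins 1.08, the 21 of polymerases and the fork 0.88, and the 6 of nucleotide supply 1.43. Tk1, which salvages thymidine, had 329, 403 and 292 CPM in the α1ACT libraries, against 103, 66.4 and 91.2 CPM in the vector libraries (log2 fold change 1.97 ± 0.11, edgeR adjusted p = 5.17e-13). Gins1, whose promoter is shown above, had 45.8, 55.9 and 37.4 CPM in the α1ACT libraries, against 15.8, 12.6 and 13.03 CPM in the vector libraries (log2 fold change 1.74 ± 0.11, edgeR adjusted p = 2.2e-12). In both genes the lowest α1ACT library was more than 2-fold above the highest vector library. Within each group replicate 2 was the extreme library for Tk1, highest in α1ACT and lowest in vector. Pcna, the sliding clamp, was higher by 1.18 ± 0.08 and Mcm6, a helicase subunit, by 1.22 ± 0.10. The smallest rise was that of Rpa3, a subunit of the single-strand binding protein, at 0.34 ± 0.10 (edgeR adjusted p = 0.00457).

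Genes of mitosis rose with those of replication. Of 51 listed genes, all tested, 50 rose and none fell, with a median log2 fold change of 1.05. Lin54, the MuvB subunit that binds the CHR element, was the 1 that did not pass, at 48.5, 56.7 and 49.3 CPM in the α1ACT libraries, against 54.9, 46.5 and 50.6 CPM in the vector libraries (log2 fold change 0.02 ± 0.07, edgeR adjusted p = 0.852). The factors that act with it rose: Foxm1 had 45.9, 58.2 and 48.9 CPM in the α1ACT libraries, against 29.7, 20.6 and 26.2 CPM in the vector libraries (log2 fold change 0.99 ± 0.10, edgeR adjusted p = 8.78e-09). Mybl2, which encodes B-Myb, was higher by 0.81 ± 0.11. Cenpw had the largest rise of the list, at 56.1, 68.97 and 48.4 CPM in the α1ACT libraries, against 16.1, 10.9 and 13.5 CPM in the vector libraries (log2 fold change 2.08 ± 0.12, edgeR adjusted p = 6.38e-13). Top2a, at a far higher level, had 670.2, 821 and 624 CPM in the α1ACT libraries, against 274, 191 and 238 CPM in the vector libraries (log2 fold change 1.59 ± 0.10, edgeR adjusted p = 1.26e-12). Groups did not overlap for Foxm1, Cenpw or Top2a. Among cyclins and kinases, Ccna2, the S phase and mitotic cyclin A, was higher by 1.59 ± 0.10, the mitotic cyclin Ccnb1 by 0.94 ± 0.09 and the mitotic kinase Aurkb by 1.42 ± 0.10. Kif22 and Kif11, spindle motors, were higher by 1.25 ± 0.07 and 1.30 ± 0.08, and the checkpoint kinase Bub1 by 1.24 ± 0.07. Medians by role ran from 0.81 for the 3 transcription factors to 1.22 for the 12 spindle genes. Cdc25b, a phosphatase that activates cyclin-dependent kinase, rose least of those that passed, at 0.20 ± 0.07 (edgeR adjusted p = 0.0202), and its groups overlapped.

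Upstream of S phase the list was mixed. Of 19 tested genes of G1 cyclins, kinases and E2F factors, 11 rose, 2 fell and 6 did not pass, and 3 more members were too low to test. E2f1, the activator E2F that passed, had 191, 201 and 185 CPM in the α1ACT libraries, against 120.5, 90.2 and 109.7 CPM in the vector libraries (log2 fold change 0.84 ± 0.09, edgeR adjusted p = 1.11e-08). Cdk2, the kinase of S phase entry, was higher by 0.84 ± 0.10, its partner Ccne2 by 0.71 ± 0.09 and the pocket protein Rbl1 by 0.81 ± 0.08. The 2 that fell were Cdk6, a G1 kinase, with 80.7, 90.8 and 89.3 CPM in the α1ACT libraries, against 115, 111 and 115 CPM in the vector libraries (log2 fold change -0.39 ± 0.07, edgeR adjusted p = 2.76e-05), and Cdkn1b, the inhibitor p27, with 82.5, 83.7 and 84.8 CPM in the α1ACT libraries, against 108, 105 and 107 CPM in the vector libraries (log2 fold change -0.35 ± 0.07, edgeR adjusted p = 0.000188). The groups did not overlap in either gene. A second inhibitor, Cdkn2c, moved the other way, to 46.7, 47.9 and 43.6 CPM in the α1ACT libraries, against 26.2, 20.4 and 24.1 CPM in the vector libraries (log2 fold change 0.95 ± 0.09, edgeR adjusted p = 4.3e-09). Cdkn1a, the inhibitor p21, had 124, 109 and 122 CPM in the α1ACT libraries, against 152, 119 and 152 CPM in the vector libraries and did not pass (edgeR adjusted p = 0.0829).

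DNA repair and histone genes had medians close to those of replication. Of 17 tested repair genes 15 rose, none fell, and the median was 0.84. Fancd2, the central Fanconi protein, had 93.05, 95.8 and 80.3 CPM in the α1ACT libraries, against 34.5, 30.99 and 36.6 CPM in the vector libraries (log2 fold change 1.39 ± 0.07, edgeR adjusted p = 1.26e-13). The exceptions were Fanca at 0.36 ± 0.18 and the mismatch repair gene Pms2 at 0.14 ± 0.06, which did not pass (edgeR adjusted p = 0.101 and 0.0642). Of 27 tested genes of the histone list 25 rose and 1 fell, with a median of 1.11. The list includes Slbp, Npat and Casp8ap2, which act in histone mRNA processing, and Npat did not pass. Clustered core histones, whose messages peak in S phase, had a median of 1.36 over 16 genes, and replacement histones, made throughout the cycle, 0.57 over 6. Hist1h1a, a linker histone, had 134, 205 and 121 CPM in the α1ACT libraries, against 28.7, 24.3 and 29.9 CPM in the vector libraries (log2 fold change 2.46 ± 0.20, edgeR adjusted p = 2.04e-10). Hist1h4b, a core histone, was higher by 1.69 ± 0.13. Hist2h2ab was lower at 34.9, 56.6 and 39.6 CPM in the α1ACT libraries, against 52.1, 60.4 and 57.4 CPM in the vector libraries (log2 fold change -0.38 ± 0.14, edgeR adjusted p = 0.0262), but its groups overlapped, and it did not pass without α1ACT replicate 1 or 3 or without vector replicate 2 or 3, so that none of the list then fell (0 genes). Clustered histone genes are near-identical copies, so reads may have been split or lost among them.

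**Figure D2:**
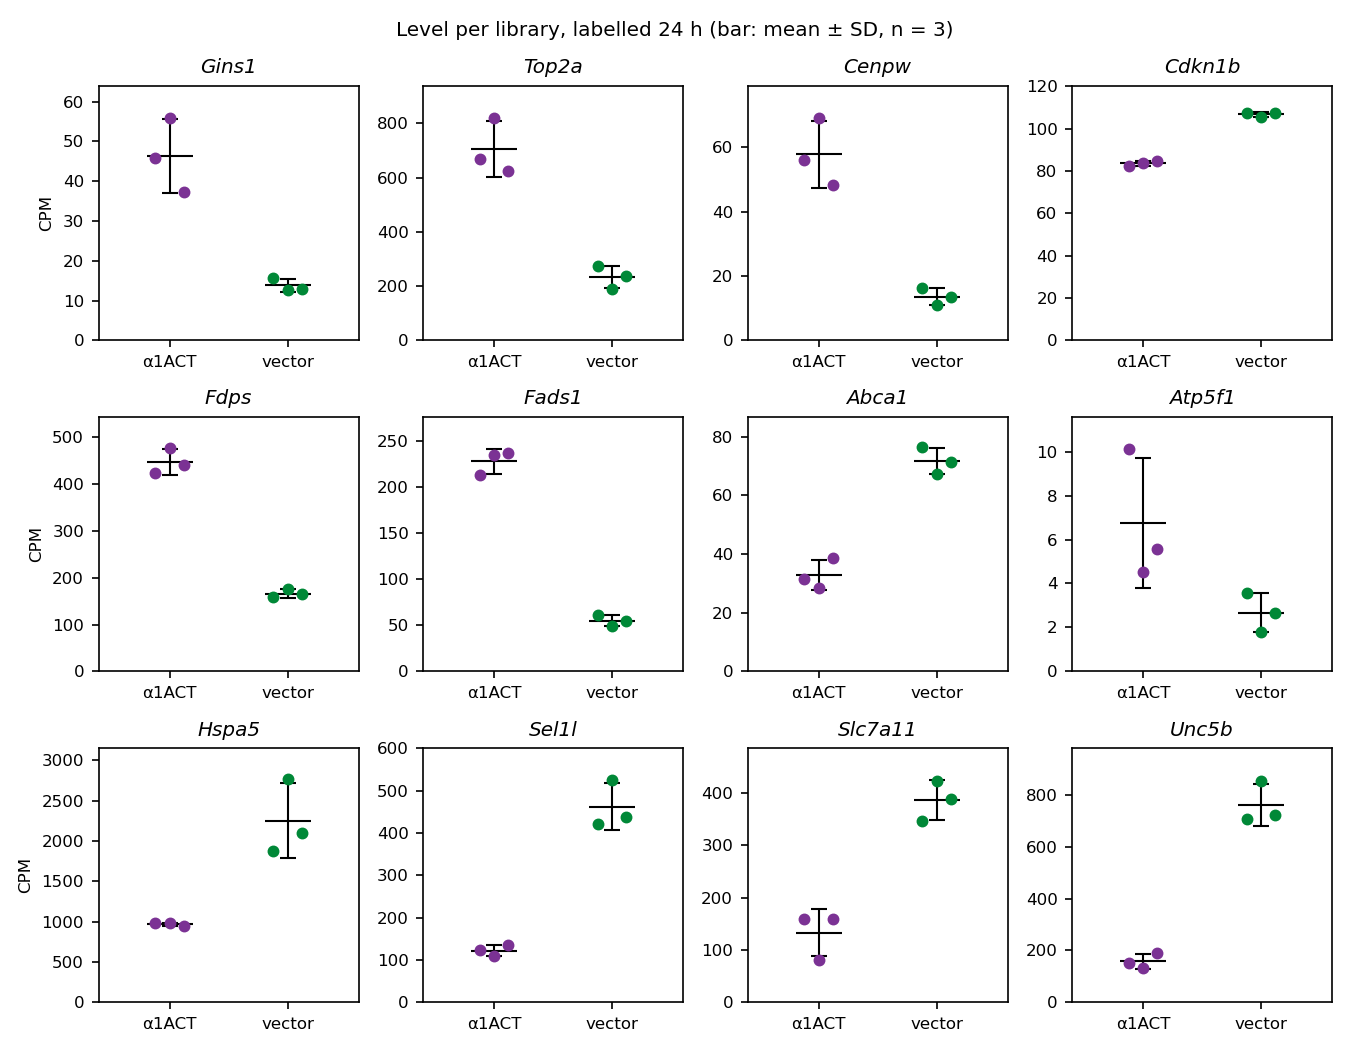
Level in CPM (y axis, linear from 0) of 12 genes in each of the 3 α1ACT (purple, left) and 3 vector (green, right) libraries labelled 24 h, with the mean ± SD (n = 3). The groups do not overlap in any panel; Gins1, Top2a and Cenpw stand higher in α1ACT and Hspa5, Sel1l, Slc7a11 and Unc5b higher in vector.

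Promoter letters were compared across these groups as a description. Of the 51 mitosis genes 42 had a RefSeq promoter window under their symbol, and TTTGAA on either strand stood in 31 of them (73.8%), against 18.3% of all 33469 promoter windows and 852 of the 7770 windows of tested genes. It stood in 13.2% of 38 windows of replication genes. The E2F site TTTGGCGC stood in 23.7% of the replication windows, against 0.493% of all windows and 1.04% of those of tested genes, and a second E2F form, TTCCCGCC, in 15.8% against 1.91% and 3.95%. The CCAAT box stood in 73.8% of mitosis windows against 37.5% of all. A match in these letters is not a measured binding site, and only windows listed by symbol were read.

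**Figure D3:**
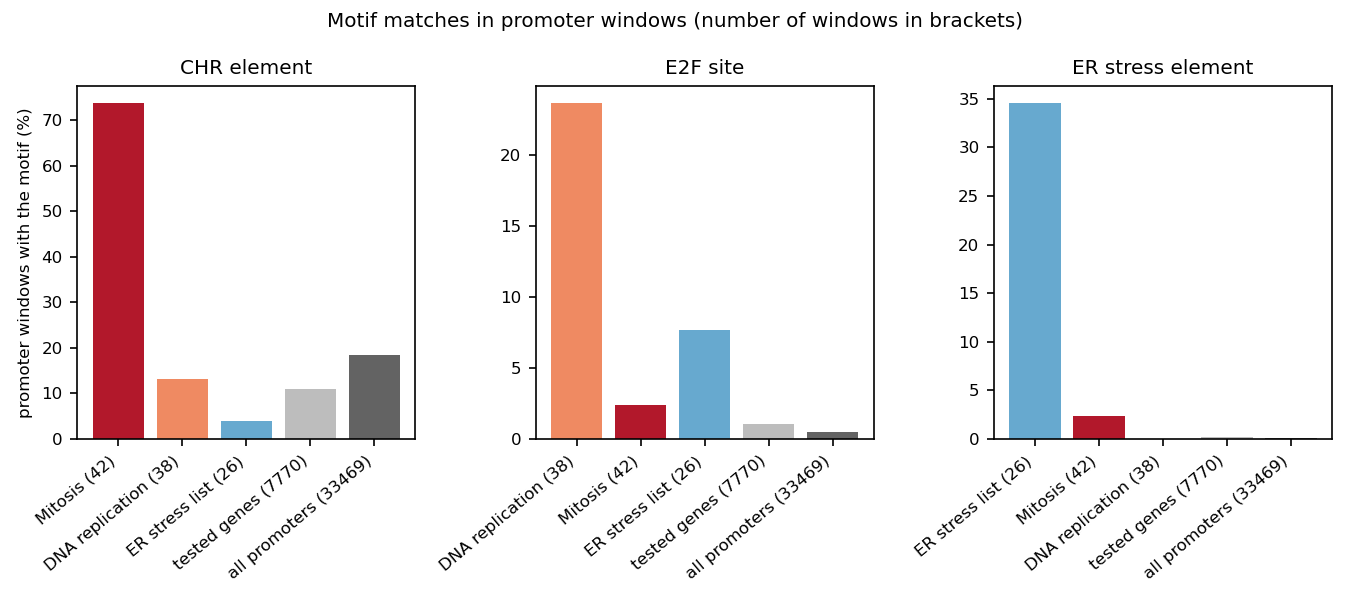
Share of promoter windows of 300 bases (y axis, %) that hold the CHR element, the E2F site or the ER stress element on either strand, for mitosis, DNA replication and ER stress genes, for tested genes and for all promoters (window number in brackets). The CHR element stands in 73.8% of mitosis windows, the E2F site in 23.7% of replication windows and the ER stress element in 34.6% of windows of the ER stress list.

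Genes of sterol synthesis rose along the pathway, while those of cholesterol efflux and the SREBP escort fell. Of 34 tested genes 23 rose and 9 fell, with a median of 0.48. All 6 early mevalonate genes rose, 1 of them (Acat3) matched to the list by a synonym, as did the 5 of isoprenoid and squalene synthesis and 8 of 9 late sterol enzymes. Fdps, which makes farnesyl diphosphate, had 424, 478 and 439.7 CPM in the α1ACT libraries, against 158, 176 and 165 CPM in the vector libraries (log2 fold change 1.43 ± 0.07, edgeR adjusted p = 8.94e-14). Idi1, the isomerase before it, had 61.3, 84.4 and 51.6 CPM in the α1ACT libraries, against 26.00, 32.4 and 28.1 CPM in the vector libraries (log2 fold change 1.19 ± 0.16, edgeR adjusted p = 9.64e-07). The groups did not overlap in either gene.

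The 9 that fell belong to other roles. Abca1 and Abcg1, exporters of cholesterol, were lower: Abca1 had 31.6, 28.3 and 38.5 CPM in the α1ACT libraries, against 76.4, 67.3 and 71.4 CPM in the vector libraries (log2 fold change -1.12 ± 0.13, edgeR adjusted p = 3.63e-08), and Abcg1 fell by 0.60 on the log2 scale. Scap, which escorts SREBP from the ER, had 151, 156 and 158 CPM in the α1ACT libraries, against 261, 292 and 258 CPM in the vector libraries (log2 fold change -0.80 ± 0.05, edgeR adjusted p = 5.18e-12). Mbtps1, the first SREBP protease, changed by -0.50 ± 0.05, Srebf2, which encodes SREBP2, by -0.22 ± 0.05 and Insig2, an ER anchor of SCAP, by -0.29 ± 0.08. Insig1, the anchor gene that SREBP itself induces, moved the other way at 0.76 ± 0.13. The lysosomal exporters Npc1 and Npc2 and the liver X receptor Nr1h2 made up the rest of the 9, at -0.28, -0.26 and -0.21. No window of the 26 sterol genes with a RefSeq promoter held the letters TCACNCCAC of the sterol element. These letters are rare, standing in 374 of all 33469 windows, so their absence from 26 windows says little.

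Fatty acid genes moved in both directions. Of 37 tested, 20 rose and 5 fell, with a median of 0.21. Of 11 desaturation and elongation genes 8 rose and 2 fell, Fads3 and Fa2h. Fads1, the delta-5 desaturase of polyunsaturated fatty acids, had 212, 234 and 236 CPM in the α1ACT libraries, against 60.7, 48.9 and 54.6 CPM in the vector libraries (log2 fold change 2.05 ± 0.09, edgeR adjusted p = 2.08e-15). Scd1, a stearoyl-CoA desaturase, had 385, 466 and 826 CPM in the α1ACT libraries, against 103, 101 and 98.6 CPM in the vector libraries (log2 fold change 2.47 ± 0.20, edgeR adjusted p = 1.56e-10). Fads1 replicates lay close together, whereas α1ACT replicate 3 stood far above the other α1ACT libraries for Scd1. Fads2 was higher by 0.77 ± 0.07, the elongase Elovl2 by 0.69 ± 0.05 and Acss2, which makes acetyl-CoA from acetate, by 0.98 ± 0.08. Fasn, the fatty acid synthase, went the other way with 931, 1183 and 1042 CPM in the α1ACT libraries, against 1376, 1342 and 1328 CPM in the vector libraries (log2 fold change -0.36 ± 0.06, edgeR adjusted p = 1.49e-05). Dgat2, which closes triglyceride synthesis, had 24.7, 21.7 and 26.4 CPM in the α1ACT libraries, against 40.2, 47.2 and 37.9 CPM in the vector libraries (log2 fold change -0.77 ± 0.10, edgeR adjusted p = 3.05e-07). Mgll, which breaks down monoglyceride, had 9.14, 6.76 and 9.56 CPM in the α1ACT libraries, against 1.85, 1.68 and 2.26 CPM in the vector libraries (log2 fold change 2.12 ± 0.18, edgeR adjusted p = 3.58e-10). Fa2h, the fatty acid 2-hydroxylase of myelin lipids, was low, with 0.615, 0.193 and 0.638 CPM in the α1ACT libraries, against 4.296, 10.4 and 4.801 CPM in the vector libraries (log2 fold change -3.64 ± 0.44, edgeR adjusted p = 9.4e-08).

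Genes of ER stress were lower in α1ACT. Of 35 tested, 1 rose, 22 fell and 12 did not pass, with a median of -0.22, against 28.8% of all tested genes that fell. Of the 7 sensors and factors 5 fell. Ern1, which encodes the sensor IRE1α, had 37.6, 28.01 and 41.8 CPM in the α1ACT libraries, against 106, 118 and 109 CPM in the vector libraries (log2 fold change -1.62 ± 0.10, edgeR adjusted p = 1.84e-12). Creb3l1, an ER-bound factor, had 2.64, 1.26 and 3.51 CPM in the α1ACT libraries, against 11.4, 16.1 and 12.7 CPM in the vector libraries (log2 fold change -2.39 ± 0.24, edgeR adjusted p = 3.79e-09). Atf6 changed by -0.70 ± 0.06 and Xbp1, the target of IRE1, by -0.49 ± 0.07, while Eif2ak3, which encodes PERK, had 39.5, 41.6 and 36.6 CPM in the α1ACT libraries, against 43.5, 43.97 and 42.05 CPM in the vector libraries and did not pass (edgeR adjusted p = 0.0993).

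Of 10 degradation genes 8 fell. Sel1l, second only to Creb3l1 in size of fall in this list and the scaffold of the HRD1 ligase, had 123, 109 and 135 CPM in the α1ACT libraries, against 422, 525 and 438 CPM in the vector libraries (log2 fold change -1.91 ± 0.08, edgeR adjusted p = 1.06e-15). Herpud1, its partner, had 275, 236 and 272 CPM in the α1ACT libraries, against 561, 695 and 607 CPM in the vector libraries (log2 fold change -1.25 ± 0.07, edgeR adjusted p = 1.26e-13). The ligase itself, Syvn1, changed by -1.33 ± 0.10. Among chaperones, Hspa5 had 984, 979 and 945 CPM in the α1ACT libraries, against 1876, 2777 and 2107 CPM in the vector libraries (log2 fold change -1.22 ± 0.09, edgeR adjusted p = 6.1e-11), with vector replicate 2 the highest library and the α1ACT libraries close together. Hsp90b1, the ER HSP90, had 400.3, 451 and 437 CPM in the α1ACT libraries, against 452, 507 and 484 CPM in the vector libraries and did not pass (edgeR adjusted p = 0.12), and neither did calreticulin, Calr, at -0.06 ± 0.07. The 1 gene that rose was Sdf2l1, part of an ER chaperone complex, with 44.7, 48.9 and 48.1 CPM in the α1ACT libraries, against 32.5, 34.1 and 31.9 CPM in the vector libraries (log2 fold change 0.53 ± 0.09, edgeR adjusted p = 3.25e-05). The ER stress element stood in 9 of 26 windows of this list (34.6%), 6 of them among the 9 chaperone windows (66.7%), against 0.0657% of all windows and 0.193% of those of tested genes.

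The integrated stress response had the lowest median of the functional lists, -0.71. Of 37 tested genes 2 rose, 30 fell and 5 did not pass, and 3 members were too low to test. Atf4, whose protein leads the response and is controlled in translation, did not pass, with 963, 849 and 914 CPM in the α1ACT libraries, against 956, 1077 and 1015 CPM in the vector libraries (log2 fold change -0.16 ± 0.10, edgeR adjusted p = 0.181). Genes known as its targets fell: all 10 genes listed as targets and 9 of 10 amino acid transporters. Slc7a11, the cystine importer, had 159, 80.95 and 159.6 CPM in the α1ACT libraries, against 347, 424 and 389 CPM in the vector libraries (log2 fold change -1.53 ± 0.19, edgeR adjusted p = 1.41e-07). Slc7a5, the importer of large neutral amino acids, had 300.3, 247 and 340.4 CPM in the α1ACT libraries, against 579, 785 and 602 CPM in the vector libraries (log2 fold change -1.14 ± 0.11, edgeR adjusted p = 2.06e-09), and Slc38a2, which imports neutral amino acids, and the glycine transporter Slc6a9 changed by -0.81 ± 0.04 and -1.84 ± 0.11. For both importers α1ACT replicate 2 was the lowest library and vector replicate 2 the highest, and the groups did not overlap. Phgdh, which starts serine synthesis, had 119, 82.01 and 117 CPM in the α1ACT libraries, against 192, 220.4 and 215 CPM in the vector libraries (log2 fold change -0.98 ± 0.12, edgeR adjusted p = 9.21e-08). Pycr1 had 17.3, 13.2 and 17.7 CPM in the α1ACT libraries, against 27.1, 32.5 and 32.4 CPM in the vector libraries (log2 fold change -0.92 ± 0.11, edgeR adjusted p = 8.11e-08). Asns, asparagine synthetase, changed by -0.64 ± 0.09, Sesn2, a regulator of TORC1, by -0.90 ± 0.07 and Ppp1r15a, the phosphatase subunit GADD34, by -1.56 ± 0.12. Ddit3, which encodes CHOP, had 193, 159 and 213 CPM in the α1ACT libraries, against 232, 295 and 246 CPM in the vector libraries (log2 fold change -0.45 ± 0.08, edgeR adjusted p = 4.17e-05). Trib3, a target of CHOP, changed by -0.31 ± 0.09. The 2 that rose were Mthfd1l, a mitochondrial folate enzyme, at 0.26 ± 0.06 and Eif2ak2, the kinase PKR, at 0.33 ± 0.05. Mthfd2, the enzyme that works beside Mthfd1l, had 197, 165 and 192 CPM in the α1ACT libraries, against 184, 208 and 189.7 CPM in the vector libraries and did not pass (edgeR adjusted p = 0.535).

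Most cytosolic aminoacyl-tRNA synthetase genes fell. Of 22 tested genes, 16 fell and 5 rose, with a median of -0.48. Wars, for tryptophan, had 216, 181 and 228 CPM in the α1ACT libraries, against 479, 612 and 486 CPM in the vector libraries (log2 fold change -1.33 ± 0.08, edgeR adjusted p = 9.18e-13). Eprs, for glutamate and proline, and Vars, for valine, changed by -0.86 ± 0.09 and -0.60 ± 0.04. The 5 that rose were Dars, Kars and Rars, for aspartate, lysine and arginine, at 0.40 ± 0.05, 0.29 ± 0.05 and 0.31 ± 0.06, and the scaffold proteins Aimp1 and Aimp2 at 0.23 and 0.19. The amino acid response element stood in 2 of 19 synthetase windows (10.5%) and 2 of 33 windows of the integrated stress response (6.06%), against 1.09% of all windows and 0.489% of those of tested genes.

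Stress and survival genes outside the ER moved in both directions. The counts of these lists stand against 26.6% higher and 28.8% lower over all tested genes. Of 23 tested p53 targets 10 fell and 3 rose. Bbc3, the death gene PUMA, changed by -0.97 ± 0.08 and Gadd45a, a growth arrest gene, by -1.26 ± 0.16. Ddb2, a sensor of ultraviolet damage, rose, with 4.66, 4.44 and 3.51 CPM in the α1ACT libraries, against 2.000, 1.03 and 1.303 CPM in the vector libraries (log2 fold change 1.51 ± 0.28, edgeR adjusted p = 5.09e-05). In the BCL2 and caspase list 7 of 24 rose and 10 fell. Casp8, an initiator caspase, rose by 0.85 ± 0.14, while the survival gene Bcl2l1 fell by 0.49 on the log2 scale. Casp12, an ER caspase of rodents, had 0.439, 0.0966 and 0.319 CPM in the α1ACT libraries, against 1.93, 2.89 and 2.81 CPM in the vector libraries (log2 fold change -3.07 ± 0.53, edgeR adjusted p = 2.11e-05). Of 15 tested heat shock genes 9 fell and 2 rose: Bag3, a cochaperone, changed by -1.18 ± 0.13 and the inducible Hspa1b by -1.19 ± 0.35, against a rise of 0.70 ± 0.09 for Hsp90aa1. The count of 2 was 1 without α1ACT replicate 2 or vector replicate 1. NRF2 and antioxidant genes gave 7 rises and 9 falls in 20. Hmox1, heme oxygenase, had 156, 129.7 and 214 CPM in the α1ACT libraries, against 541, 418 and 494 CPM in the vector libraries (log2 fold change -1.54 ± 0.12, edgeR adjusted p = 1.32e-10), and Gpx4, which reduces lipid peroxides, rose by 0.38 ± 0.07.

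Immediate early genes and the MYC network were mostly lower or did not pass. Of 38 tested, 2 rose, 18 fell and 18 did not pass, and 12 members were too low to test. Myc had 22.1, 15.5 and 20.4 CPM in the α1ACT libraries, against 63.3, 73.3 and 61.3 CPM in the vector libraries (log2 fold change -1.76 ± 0.11, edgeR adjusted p = 2.15e-12), and its antagonist Mxd3, an S phase member of the MXD family, had 16.6, 25.3 and 17.1 CPM in the α1ACT libraries, against 6.07, 2.89 and 5.35 CPM in the vector libraries (log2 fold change 2.00 ± 0.19, edgeR adjusted p = 2.57e-09). Both separated the groups, in opposite directions. Mxi1 was the other of the 2 rises, at 0.23 ± 0.06, and Mnt, Mxd4 and Max fell by 1.07, 0.52 and 0.47. Atf3, a stress-induced AP-1 partner, had 7.64, 3.38 and 5.499 CPM in the α1ACT libraries, against 14.7, 23.4 and 17.9 CPM in the vector libraries (log2 fold change -1.74 ± 0.20, edgeR adjusted p = 3.56e-08). Jun changed by -0.96 ± 0.13. Fos had 4.92, 7.34 and 6.14 CPM in the α1ACT libraries, against 7.26, 11.3 and 7.54 CPM in the vector libraries, overlapping, and did not pass (edgeR adjusted p = 0.0849). Egr1 was at the limit of detection with 5 counts over the 3 α1ACT libraries and 54 over the 3 vector libraries, a depth-scaled ratio of 9.54 towards vector (exact 95% counting interval 3.85 to 30.6).

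Genes of energy metabolism rose, both those of the mitochondrion and those of glycolysis. Of 75 tested genes of the respiratory chain and citrate cycle 48 rose and 2 fell, with a median of 0.23, so the changes were small and numerous. Atp5b, the catalytic β subunit of ATP synthase, had 2389, 2425 and 2372 CPM in the α1ACT libraries, against 1598, 1622 and 1625 CPM in the vector libraries (log2 fold change 0.57 ± 0.04, edgeR adjusted p = 1.74e-11). Fh, fumarase, was higher by 0.94 ± 0.07 and Sdhb, of complex II, by 0.59 ± 0.07. Complex I rose in 14 of 28 genes and complex II in 4 of 4. Atp5f1 had the largest change of the list at its lowest mean level, with 10.1, 4.54 and 5.58 CPM in the α1ACT libraries, against 3.56, 1.77 and 2.67 CPM in the vector libraries (log2 fold change 1.31 ± 0.26, edgeR adjusted p = 0.000156). The 2 that fell were Uqcrq, of complex III, at -0.34 ± 0.06 and Ndufv1, of complex I, at -0.18 ± 0.04, and citrate synthase, Cs, did not pass at -0.07 ± 0.05.

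Glycolytic enzymes rose in 13 of 19 genes, with a median of 0.54 for that role. Pgk1 had 1030.1, 1019.5 and 1078 CPM in the α1ACT libraries, against 579, 580.4 and 588 CPM in the vector libraries (log2 fold change 0.84 ± 0.04, edgeR adjusted p = 8.94e-14). Ldha, which makes lactate, had 2388, 2603 and 2554 CPM in the α1ACT libraries, against 1500.5, 1528 and 1471 CPM in the vector libraries (log2 fold change 0.75 ± 0.07, edgeR adjusted p = 6.33e-10). The 3 phosphofructokinase genes Pfkp, Pfkl and Pfkm were higher by 0.62, 0.66 and 0.79, and the glucose transporter Slc2a1 was the 1 that fell, at -0.41 ± 0.11. Genes of the hypoxia response did not follow: of 18 tested 4 rose and 9 fell, against 26.6% higher and 28.8% lower over all tested genes. Epas1, which encodes HIF-2α, had 284, 275 and 336 CPM in the α1ACT libraries, against 731, 632 and 714 CPM in the vector libraries (log2 fold change -1.21 ± 0.08, edgeR adjusted p = 6.24e-12). Egln3, a HIF prolyl hydroxylase that HIF induces, had 309.9, 321 and 489 CPM in the α1ACT libraries, against 106, 115 and 103 CPM in the vector libraries (log2 fold change 1.79 ± 0.17, edgeR adjusted p = 1.28e-09). Bnip3, a mitophagy receptor also induced by HIF, changed by -0.45 ± 0.07. Vegfa, the angiogenic factor, did not pass, at -0.17 ± 0.08 (edgeR adjusted p = 0.0895).

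Lysosome and autophagy genes were lower and ribosomal protein genes near 0. Of 33 tested lysosomal and autophagy genes 23 fell and 3 rose, with a median of -0.27. Map1lc3b, the autophagosome protein LC3B, had 151, 139 and 156 CPM in the α1ACT libraries, against 239, 264 and 242 CPM in the vector libraries (log2 fold change -0.74 ± 0.05, edgeR adjusted p = 4.16e-12). Sqstm1, the cargo receptor p62, changed by -0.83 ± 0.06, Tfe3, a factor of lysosomal genes, by -1.04 ± 0.07 and Gaa, acid glucosidase, by -0.85 ± 0.07. The 3 that rose were Optn, another cargo receptor, at 0.49 ± 0.12, the proton pump subunit Atp6v0d1 at 0.19 and cathepsin D, Ctsd, at 0.17. Of 59 tested cytosolic ribosomal protein genes 47 did not pass, 4 rose and 8 fell, with a median of -0.03. These counts rested on single libraries. Without vector replicate 2, 13 rose and 0 fell, and without α1ACT replicate 1, 2 rose and 2 fell. Without vector replicate 1 or 3 the rises were 2, and without α1ACT replicate 2 the falls were 4.

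Chromaffin genes diverged by function. Of 11 tested genes of catecholamine synthesis and storage 6 rose and 2 fell, or 1 without any one of α1ACT replicates 1 and 3 and vector replicates 1 and 2. Th, the rate-limiting tyrosine hydroxylase, had 6542, 7104 and 7366 CPM in the α1ACT libraries, against 4880.2, 5154 and 4779 CPM in the vector libraries (log2 fold change 0.50 ± 0.05, edgeR adjusted p = 1.44e-08). Ddc, the next enzyme, had 1792, 1672 and 1869 CPM in the α1ACT libraries, against 1443, 1147 and 1386 CPM in the vector libraries (log2 fold change 0.42 ± 0.06, edgeR adjusted p = 2.45e-06). Dbh, which makes noradrenaline, had 30.1, 31.97 and 36.1 CPM in the α1ACT libraries, against 38.6, 29.9 and 40.7 CPM in the vector libraries and did not pass (edgeR adjusted p = 0.284). Maoa, which breaks catecholamines down, was higher by 0.58 ± 0.06, and Slc18a1, the vesicular transporter VMAT1, was lower with 961, 1093 and 963 CPM in the α1ACT libraries, against 1354, 1338 and 1246 CPM in the vector libraries (log2 fold change -0.38 ± 0.11, edgeR adjusted p = 0.00311). Chgb, the granule protein chromogranin B, rose by 0.51 ± 0.08, and Furin, a prohormone protease, changed by -0.56 ± 0.14.

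The transcription factors of sympathoadrenal identity fell in 6 of 8 tested genes. Gata2 had 439, 490.1 and 477 CPM in the α1ACT libraries, against 823, 967 and 824 CPM in the vector libraries (log2 fold change -0.89 ± 0.06, edgeR adjusted p = 1.74e-11). Gata3, its relative, had 5.36, 6.86 and 8.13 CPM in the α1ACT libraries, against 18.4, 19.7 and 14.1 CPM in the vector libraries (log2 fold change -1.34 ± 0.16, edgeR adjusted p = 1.49e-07). Phox2a, a determinant of noradrenergic fate, had 282, 312 and 269 CPM in the α1ACT libraries, against 425, 434 and 435 CPM in the vector libraries (log2 fold change -0.58 ± 0.06, edgeR adjusted p = 4.78e-09). No library of one group overlapped the other in these 3. Isl1 changed by -0.58 ± 0.10, and Hand2 did not pass at 0.04. Nicotinic receptor genes split, with Chrnb4 at 0.86 ± 0.30 and Chrna7 at -0.74 ± 0.09.

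Receptors for neurotrophic factors moved in both directions. Of 17 tested genes of receptors and ligands 5 rose and 5 fell, close to the shares over all tested genes (26.6% higher and 28.8% lower). Ret, the receptor kinase of the GDNF family, had 197, 213 and 239 CPM in the α1ACT libraries, against 102, 87.5 and 101 CPM in the vector libraries (log2 fold change 1.16 ± 0.08, edgeR adjusted p = 2.37e-11), and its coreceptors Gfra1 and Gfra2 were higher by 1.08 ± 0.15 and 1.54 ± 0.26. The third coreceptor, Gfra3, for artemin, went the other way, with 1.67, 0.676 and 1.196 CPM in the α1ACT libraries, against 10.1, 11.9 and 10.01 CPM in the vector libraries (log2 fold change -3.14 ± 0.26, edgeR adjusted p = 1.36e-10). Ngfr, the p75 receptor, had 824, 777 and 818 CPM in the α1ACT libraries, against 1021, 1135 and 1065 CPM in the vector libraries (log2 fold change -0.41 ± 0.09, edgeR adjusted p = 0.00033). Insr, the insulin receptor, changed by -1.23 ± 0.11. Every library of Ret, Gfra3 and Ngfr lay on its group's side.

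Axon guidance receptors were lower. Of 36 tested guidance genes 5 rose, 15 fell and 16 did not pass, with a median of -0.42, and the 5 rises were 3 without α1ACT replicate 3 or vector replicate 2. Of 13 receptors 7 fell and none rose. Unc5b, a netrin receptor, had 153, 132 and 189 CPM in the α1ACT libraries, against 706, 855 and 722 CPM in the vector libraries (log2 fold change -2.27 ± 0.10, edgeR adjusted p = 2.95e-15), and the plexins Plxna2, Plxnb2 and Plxnd1 changed by -0.69, -0.75 and -0.60. Of 5 tested genes of teneurins and latrophilins, adhesion proteins of growing axons, 3 fell. Odz4, now Tenm4, had 1.76, 1.06 and 0.797 CPM in the α1ACT libraries, against 23.3, 16.3 and 19.8 CPM in the vector libraries (log2 fold change -4.04 ± 0.21, edgeR adjusted p = 9.91e-14). Tenm2 had 5.97, 6.47 and 6.61 CPM in the α1ACT libraries, against 27.1, 30.6 and 23.8 CPM in the vector libraries (log2 fold change -2.09 ± 0.15, edgeR adjusted p = 2.74e-11). The ligands were divided 5 to 5 among 18, close to the shares over all tested genes (26.6% higher and 28.8% lower). Slit2, which repels axons, rose with 28.2, 18.7 and 21.7 CPM in the α1ACT libraries, against 9.18, 4.67 and 9.74 CPM in the vector libraries (log2 fold change 1.51 ± 0.18, edgeR adjusted p = 1.41e-07), and Efnb3 by 0.99 ± 0.29.

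The neuronal cytoskeleton was divided as well, with 9 rises and 9 falls in 27, against 26.6% higher and 28.8% lower over all tested genes. Nefl, the light neurofilament, had 246, 234 and 215 CPM in the α1ACT libraries, against 129, 114 and 127 CPM in the vector libraries (log2 fold change 0.91 ± 0.08, edgeR adjusted p = 1.29e-09). Nefm, the medium one, had 32.6, 31.1 and 32.4 CPM in the α1ACT libraries, against 61.5, 58.3 and 56.1 CPM in the vector libraries (log2 fold change -0.87 ± 0.11, edgeR adjusted p = 4.07e-07), in the opposite direction and with no overlap in either. Map1a, a microtubule protein of axons, had 97.00, 89.2 and 118 CPM in the α1ACT libraries, against 345, 324 and 339 CPM in the vector libraries (log2 fold change -1.72 ± 0.12, edgeR adjusted p = 1.73e-11), while the tubulin Tubb2b was higher by 1.02 ± 0.10 and Tubb3 changed by -0.43 ± 0.08. Of 28 tested genes of synaptic vesicles and exocytosis 23 did not pass, with 2 rises and 3 falls. Without vector replicate 1 the rises were 1, and without α1ACT replicate 3 the falls were 6.

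Voltage-gated channels fell in 15 of 30 tested genes and rose in 2 (1 without α1ACT replicate 3 or vector replicate 2 or 3), with a median of -0.21. Cacna1b, the N-type calcium channel, had 73.2, 66.5 and 85.2 CPM in the α1ACT libraries, against 153, 159 and 166 CPM in the vector libraries (log2 fold change -1.09 ± 0.08, edgeR adjusted p = 2.92e-11). Kcnc1, a fast delayed rectifier, had 5.89, 4.93 and 7.65 CPM in the α1ACT libraries, against 13.03, 14.8 and 16.2 CPM in the vector libraries (log2 fold change -1.24 ± 0.15, edgeR adjusted p = 1.47e-07). Kcnh3 changed by -2.19 ± 0.32. The 2 that rose were Kcna3 at 0.68 ± 0.21 and Kcnh1 at 0.51 ± 0.16. Scn9a, the sodium channel Nav1.7, held 5 counts over the α1ACT and 37 over the vector libraries, a depth-scaled ratio of 6.54 towards vector (exact 95% counting interval 2.56 to 21.3). Calcium store genes moved in both directions. Itpr1, an IP3 receptor, rose, with 39.7, 43.8 and 41.6 CPM in the α1ACT libraries, against 24.7, 21.6 and 21.9 CPM in the vector libraries (log2 fold change 0.87 ± 0.08, edgeR adjusted p = 6.54e-10). Of the other IP3 receptors, Itpr2 rose by 0.71 ± 0.30 and Itpr3 changed by -0.87 ± 0.12 (edgeR adjusted p = 1.41e-06). Ryr2 and Stim2 changed by -0.75 ± 0.17 and -0.47 ± 0.07, and Stim1 and Orai1 did not pass. The pumps Atp2a2, Atp2a3 and Atp2b1 changed by -0.39 ± 0.04, -1.70 ± 0.38 and -0.37 ± 0.05, and Atp2b4 rose by 0.61 ± 0.11.

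Genes of G protein signalling leaned upward, with 10 rises and 2 falls in 19 tested, against 26.6% higher and 28.8% lower over all tested genes. A further 18 members were too low to test. P2rx2, an ATP-gated channel listed with the receptors, was higher by 0.76 ± 0.05, and Rgs2, which speeds Gq turnover, had 6.33, 3.57 and 9.09 CPM in the α1ACT libraries, against 0.518, 1.03 and 0.823 CPM in the vector libraries (log2 fold change 3.03 ± 0.41, edgeR adjusted p = 7.33e-07). Matrix and adhesion genes gave 6 rises and 7 falls in 30, against 26.6% higher and 28.8% lower over all tested genes. The protease Mmp14 changed by -0.65 ± 0.05, the laminin chains Lamc1 and Lamb3 by -0.75 ± 0.07 and 1.44 ± 0.23. Interferon and antigen presentation genes gave 8 rises and 9 falls in 26, against 26.6% higher and 28.8% lower over all tested genes. Among the 9 falls were Gbp2 at -0.91 ± 0.17, Tapbp at -0.39 ± 0.05 and RT1-A1 at -0.36 ± 0.05. Irf7, the interferon regulatory factor, had 23.02, 18.2 and 20.00 CPM in the α1ACT libraries, against 11.4, 9.803 and 9.12 CPM in the vector libraries (log2 fold change 1.01 ± 0.11, edgeR adjusted p = 1.16e-08), and the immunoproteasome subunit Psmb10 was higher by 0.64 ± 0.08.

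The largest single changes came from many functions. Among called genes that averaged 2 CPM or more and whose groups did not overlap, the 15 largest rises ran from 2.03 to 3.30 and the 15 largest falls from -2.24 to -4.04 on the log2 scale. Besides those above, the rises included Pde4b, a cAMP phosphodiesterase, with 43.8, 51.7 and 53.5 CPM in the α1ACT libraries, against 9.26, 13.3 and 11.2 CPM in the vector libraries (log2 fold change 2.16 ± 0.15, edgeR adjusted p = 1.18e-11), and Cited1, a transcriptional coactivator, with 13.5, 18.5 and 17.8 CPM in the α1ACT libraries, against 5.11, 3.64 and 3.29 CPM in the vector libraries (log2 fold change 2.04 ± 0.18, edgeR adjusted p = 6.51e-10). Hsd11b1, which activates glucocorticoid, had 22.5, 15.5 and 49.7 CPM in the α1ACT libraries, against 7.33, 5.601 and 6.45 CPM in the vector libraries (log2 fold change 2.18 ± 0.28, edgeR adjusted p = 2.84e-07), with α1ACT replicate 3 far above the other α1ACT libraries. Fam64a, a mitotic gene, was 4.503-fold higher, Csgalnact1, which starts chondroitin chains, 4.198-fold and the serotonin-gated channel Htr3a 4.83-fold.

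Among the falls, Il23a, the p19 subunit of interleukin 23, had 14.7, 9.47 and 14.5 CPM in the α1ACT libraries, against 42.96, 93.2 and 49.9 CPM in the vector libraries (log2 fold change -2.24 ± 0.21, edgeR adjusted p = 2.03e-09), with vector replicate 2 far above the other vector libraries. Slc16a5, of the monocarboxylate transporter family, had 3.34, 3.28 and 3.27 CPM in the α1ACT libraries, against 14.2, 21.6 and 15.2 CPM in the vector libraries (log2 fold change -2.35 ± 0.19, edgeR adjusted p = 1.04e-10). Kif21b, a kinesin of neurons, had 4.13, 1.84 and 5.82 CPM in the α1ACT libraries, against 17.8, 31.2 and 20.7 CPM in the vector libraries (log2 fold change -2.51 ± 0.26, edgeR adjusted p = 1.06e-08). Trim66 was 5.57-fold lower and Metrn, the neurotrophic factor meteorin, 4.84-fold. Stard8, a RhoGAP, had 0.703, 0.193 and 1.04 CPM in the α1ACT libraries, against 2.37, 7.002 and 3.02 CPM in the vector libraries (log2 fold change -2.55 ± 0.43, edgeR adjusted p = 1.53e-05), with vector replicate 2 far above the other vector libraries. Olr1386 is an olfactory receptor gene of a family with close copies, so its 10.1-fold lower count is uncertain. The rest of the 30 were LOC691496, the matrix protein gene Tgfbi and Tmem252 among the rises, at 3.30, 2.19 and 2.03, and the collagen gene Col4a1, the cytochrome Cyp4b1 and Slc12a8 among the falls, at -3.81, -3.28 and -3.02.

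**Figure D4:**
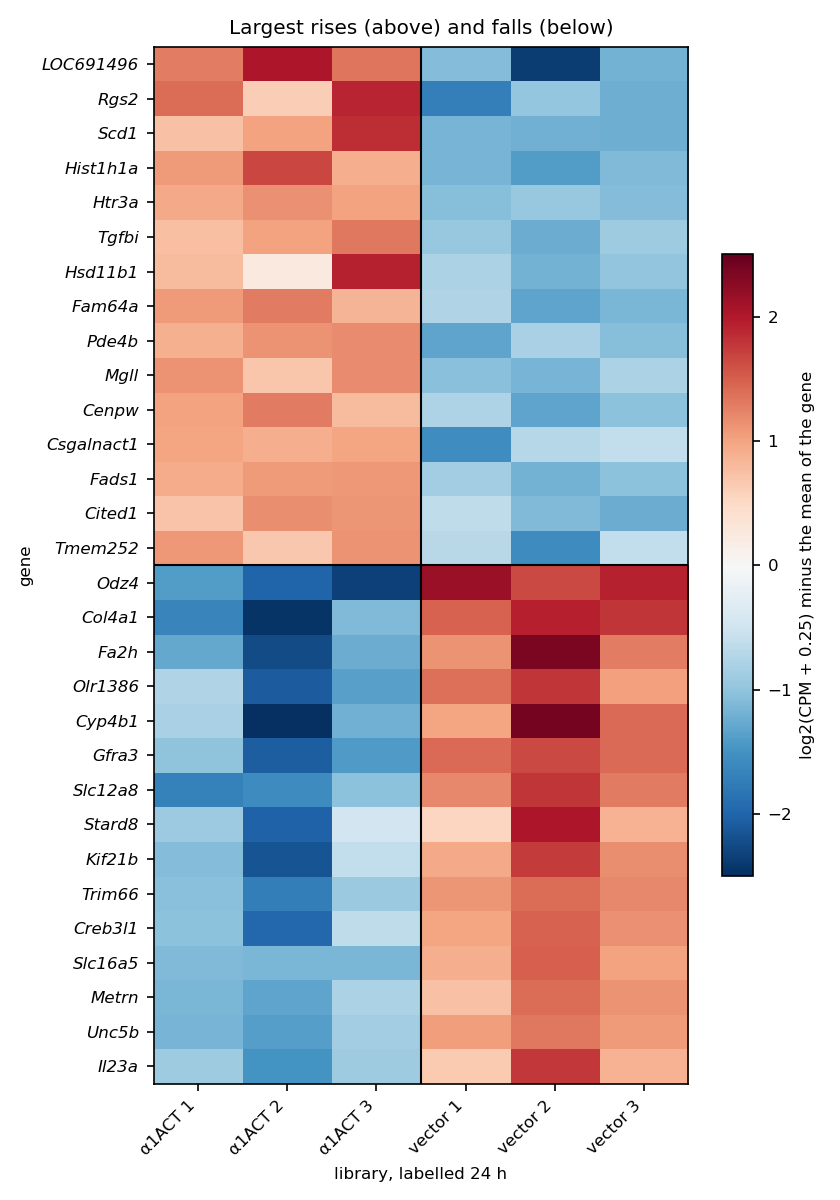
Level of the 15 genes with the largest rise (above the line) and the 15 with the largest fall (below) in each α1ACT (left 3 columns) and vector (right 3 columns) library labelled 24 h, as log2(CPM + 0.25) minus the gene's mean over the 6 libraries. For each rise every α1ACT column is above every vector column, and for each fall every α1ACT column is below. This follows from the choice of genes, which required groups without overlap.

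The labelled 10 d comparison, which shares no library with the labelled 24 h one, shared most of its calls. By the file names it is 10 d over 3 d within the α1ACT line, so under that reading the 2 comparisons are the same interval in 2 lines, and under the labels they are the same lines at 2 times. At 10 d 5886 genes passed (58.9%). Of the 2662 genes higher at 24 h, 2254 were also higher at 10 d, which is 84.7% of the 24 h list and 76.4% of the 10 d list of 2950, and 1 was lower. Of the 2880 lower at 24 h, 2358 were also lower at 10 d, 81.9% of the 24 h list and 80.3% of the 10 d list of 2936, and 9 were higher. Across the 9994 genes the log2 fold changes of the 2 times had a Pearson r of 0.884 as a description, genes not being independent. The mitosis list rose in 44 and fell in 1 of 51 at 10 d, with a median of 0.83, against 29.5% of all genes that rose, and the integrated stress response fell in 29 of 37, with a median of -0.81, against 29.4% of all genes that fell.

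The difference between the 24 h and 10 d changes was tested directly, and 7 genes passed (0.07%), with 1211 at an unadjusted p under 0.05 and 62 by DESeq2. Pgf, placental growth factor, had at 24 h 320.4 ± 50.2 CPM in the α1ACT and 431 ± 24.9 CPM in the vector libraries (SD, n = 3 each), and at 10 d 378 ± 57.2 CPM in the α1ACT and 322 ± 9.91 CPM in the vector libraries, a difference of changes of -0.66 ± 0.13, edgeR adjusted p = 0.0442. Ero1l, which oxidises disulfide isomerases, changed by -0.21 ± 0.08 at 24 h and 0.36 ± 0.08 at 10 d (difference -0.57 ± 0.11, edgeR adjusted p = 0.0442). Atp1b1, the sodium pump β subunit, had 451, 458 and 436 CPM in the α1ACT libraries, against 618, 554 and 589 CPM in the vector libraries at 24 h, a change of -0.39 ± 0.04, and its change at 10 d was -0.0037 (difference -0.38 ± 0.06, edgeR adjusted p = 0.023). Pgf, Ero1l, S100a1 and Amotl2 had opposite signs at the 2 times, S100a1 and Amotl2 with 24 h changes of -0.19 ± 0.06 and 0.20 ± 0.08 against 10 d changes of 0.29 ± 0.06 and -0.39 ± 0.08. Prcp and Mettl7a did not pass at 24 h, at 0.01 and -0.06, and were higher at 10 d by 0.59 ± 0.08 and 0.42 ± 0.07. Leaving out a single library moved the count of 7 to between 0 and 82: it was 82 without α1ACT 24 h replicate 3, 75 without vector 10 d replicate 1, 37 without α1ACT 10 d replicate 2 and 29 without vector 24 h replicate 2, and 0 or 1 without any one of the other 8.

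The labelled 6 h comparison, which shares no library with it either, was unlike it. By the file names it is 24 h over 6 h within the vector line. At 6 h 4162 genes passed (41.6%), 2045 higher (20.5%) and 2117 lower (21.2%). Of the genes higher at 24 h, 557 were also higher at 6 h (20.9% of the 24 h list and 27.2% of the 6 h list) and 646 were lower. Of the genes lower at 24 h, 625 were also lower at 6 h (21.7% of the 24 h list and 29.5% of the 6 h list) and 593 were higher. The difference between the changes passed in 5136 genes (51.4%), against 0.07% for 10 d. All 51 mitosis genes were among them: 50 rose at 24 h, and at 6 h none rose and 35 fell, with a median of -0.32. Top2a had at 6 h 568 ± 26.4 CPM in the α1ACT and 749 ± 23.3 CPM in the vector libraries (SD, n = 3 each), a change of -0.40 ± 0.09, and the difference from 24 h was 1.99 ± 0.14, edgeR adjusted p = 1.65e-11. ER stress genes, of which 22 fell at 24 h, rose in 15 and fell in 6 of 35 at 6 h. Hspa5 had at 6 h 1100.0 ± 23.4 CPM in the α1ACT and 876 ± 112 CPM in the vector libraries, a change of 0.33 ± 0.09 (difference -1.54 ± 0.13, edgeR adjusted p = 6.75e-10).

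**Figure D5:**
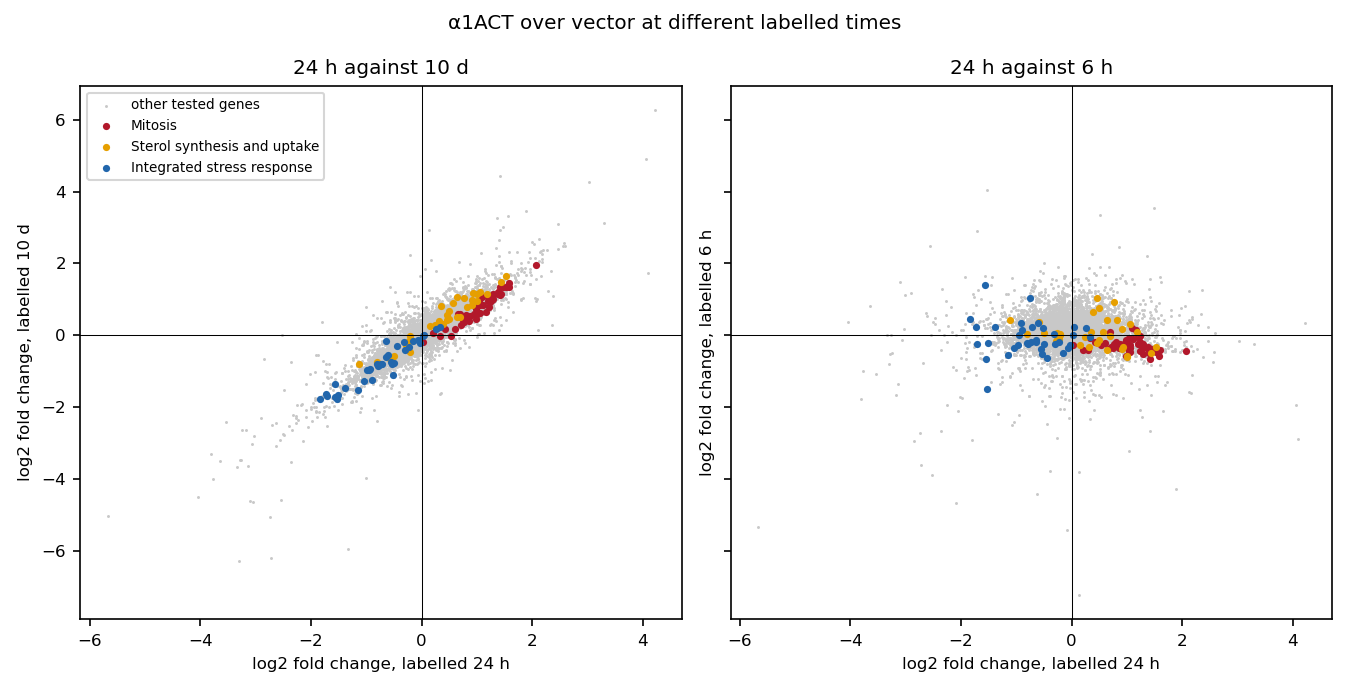
Log2 fold change of α1ACT over vector at the labelled 24 h (x axis) against that at the labelled 10 d (left, y axis) and 6 h (right, y axis), for 9994 tested genes (grey) with 3 lists coloured. Points lie along the diagonal on the left (Pearson r 0.884) and show no slope on the right (Pearson r 0.0157), where mitosis genes are above 0 at 24 h and mostly below 0 at 6 h.

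Several genes with a large difference from 6 h had opposite signs at the 2 times. Unc5b had at 6 h 266 ± 20.1 CPM in the α1ACT and 138 ± 11.4 CPM in the vector libraries, a rise of 0.95 ± 0.10, against its fall at 24 h (difference -3.21 ± 0.14, edgeR adjusted p = 1.22e-14). Dclk1, a microtubule kinase of neurons, had 14.6, 21.5 and 15.9 CPM in the α1ACT libraries, against 6.295, 4.01 and 5.42 CPM in the vector libraries at 24 h and at 6 h 36.2 ± 3.58 CPM in the α1ACT and 95.5 ± 7.66 CPM in the vector libraries (difference 3.09 ± 0.27, edgeR adjusted p = 7.67e-10). Lrrn3, a leucine-rich repeat protein of neurons, changed by 2.16 ± 0.38 at 24 h and -1.60 ± 0.21 at 6 h. Lrrn3 was low at 24 h, at a mean of 2.14 CPM in α1ACT and 0.467 CPM in vector libraries. Myl9, a smooth muscle myosin light chain, changed by 1.27 ± 0.50 and -2.26 ± 0.25, and Dysf, dysferlin, by -1.93 ± 0.29 and 1.63 ± 0.33. At 24 h Myl9 had 1.05, 0.773 and 0.478 CPM in the α1ACT libraries, against 0.296, 0.280 and 0.343 CPM in the vector libraries. It reached the 2 CPM filter through its 6 h vector level of 6.84 ± 0.39 CPM, so its 24 h change is uncertain. Slc16a5 and Slc12a8, which fell at 24 h, rose at 6 h by 1.28 ± 0.27 and 1.11 ± 0.40. Slc7a11 fell at both times, with -1.53 ± 0.19 at 24 h and -1.51 ± 0.34 at 6 h, and the difference of its changes did not pass (-0.02 ± 0.42, edgeR adjusted p = 0.967). Among stress genes that fell at both times, Jun changed by -0.90 ± 0.12 and Atf3 by -1.10 ± 0.25 at 6 h.

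Distances between group means place the 6 libraries in the series. The α1ACT group at 24 h lay 0.215 from the α1ACT group at 10 d, as the root mean square difference in log2 CPM, and the vector group at 24 h lay 0.222 from the vector group at 10 d. The 2 groups at 24 h lay 0.511 apart. By the file names those 2 short distances are between the 2 lines at 10 d and between the 2 lines at 3 d, and the longer one is between 10 d and 3 d of the vector line.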

How the data were processed

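Total RNA libraries of PC12 cells were made with a stranded kit with removal of ribosomal RNA and read as pairs of 100 bases in 3 lanes, per the labels' protocols. The authors deposited read counts per gene symbol, 1 table of whole numbers per library with no normalization. The submitters' processing notes name FastQC 0.11.2, TopHat2 2.0.10, Picard 1.117, HTSeq 0.5.4p5, edgeR without a version, and build rn5. Their roles, the annotation and the strand setting of the counting are not stated there or in the labels, so overlapping antisense genes cannot be told apart. The labels alone set the groups.

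Each table lists 17055 genes, and the summary lines at its end were left out of all sums and tests. Reads outside genes were 47.8% to 52.9% and ambiguous reads 0.159% to 0.242% of assigned, ambiguous and outside reads over the 24 libraries. Counts on genes were 8679560 to 14486248 per library, so 3 counts equal 0.207 to 0.346 CPM, and counting intervals cover counting error only. All 24 libraries entered 1 edgeR 4.0.16 fit in R 4.3.3 (TMM scaling, quasi-likelihood F-test, 16 residual degrees of freedom) after filterByExpr on the 8 groups (at least 10 counts, total at least 15), leaving 9994 genes. P-values were adjusted by Benjamini-Hochberg over these, with a threshold of 0.05. Fold changes and standard errors come from this fit, and the code was tested on simulated data. CPM use TMM-scaled library sizes, and distances use its log2 values (prior count 2).

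The members, the 37 gene lists (1228 entries, 88 without a row) and the tests were chosen with earlier results of these data known. Named genes were the 15 largest rises and 15 largest falls past the threshold with at least 2 CPM and no overlap, list members (first those with the smallest p, then those against the list's majority), and the 5 largest differences per direction from 10 d and 6 h. Prcp and Mettl7a were named among the genes differing from 10 d after their values were seen. Some list members the rule names are not reported here. Promoters were searched on both strands. Alternatives were DESeq2 1.42.0, other scalings, no filter, the 6 libraries alone, a replicate block and leaving out libraries.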

Additional observations from a re-analysis of the deposited data

Results flagged for a closer look

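Results are listed here because the α1ACT against vector change at the labelled 24 h differed, by edgeR's test of the difference itself, from the change at another labelled time. By the file names these are differences between 10 d over 3 d of the vector line and other intervals.

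Among the genes with the largest rise at 24 h, the change at 24 h minus that at 6 h on the log2 scale was 3.54 for LOC691496, 3.20 for Rgs2, 2.64 for Scd1, 2.23 for Hist1h1a, 2.65 for Htr3a, 2.62 for Tgfbi, 1.66 for Hsd11b1, 1.72 for Fam64a, 2.47 for Pde4b and 1.71 for Mgll. It was 2.52 for Cenpw, 2.22 for Csgalnact1, 1.94 for Fads1, 2.22 for Cited1 and 2.30 for Tmem252. Lrrn3, Myl9 and Dclk1, named for this difference, stood at 3.76, 3.53 and 3.09, with Lrrn3 and Myl9 low at 24 h.

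Among the genes with the largest fall it was -4.40 for Odz4, -4.47 for Fa2h, -2.76 for Cyp4b1, -1.80 for Gfra3, -4.13 for Slc12a8, -5.03 for Stard8, -2.88 for Kif21b and -2.78 for Trim66. It was -2.53 for Creb3l1, -3.63 for Slc16a5, -2.85 for Metrn, -3.21 for Unc5b and -2.49 for Il23a. At 6 h some of these genes stood near the level of 3 counts, so the size of their difference is uncertain. In α1ACT and vector at 6 h, Stard8 averaged 0.389 and 0.0629 CPM and Fa2h 0.334 and 0.187 CPM. Trim66 averaged 0.417 and 0.334 CPM and Creb3l1 0.471 and 0.434 CPM. The standard error of the difference was 1.22 for Stard8 and 1.16 for Fa2h. Dysf, named for this difference, stood at -3.56.

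The change at 24 h minus that at 10 d was 0.59 for Amotl2, -0.38 for Atp1b1, -0.57 for Ero1l, -0.48 for Mettl7a, -0.66 for Pgf, -0.58 for Prcp and -0.49 for S100a1.

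In gene lists, the number of tested members whose 24 h and 6 h changes differed was 45 of 47 for DNA replication, 51 of 51 for mitosis, 13 of 17 for DNA repair, 22 of 27 for histones and 25 of 34 for sterol synthesis and uptake. It was 23 of 35 for ER stress, 23 of 37 for the integrated stress response, 18 of 22 for the synthetases, 41 of 75 for the respiratory chain and 25 of 33 for lysosome and autophagy, against 51.4% of all tested genes.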

How the results depend on the processing

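The count of 5542 called genes was 5547 with RLE scaling, 5547 with library sizes alone, 5377 with DESeq2, 5454 of 13187 genes without a filter, 5191 of 9706 in the 6 libraries alone, and 5102 to 5317 without single libraries of the comparison. All 30 genes of the largest changes kept their calls under every alternative run. They were chosen from these data as large changes without overlap, so this outcome was largely set by the choice. Of 650 called list members and named genes 124 lost the call in some alternative, of 296 not called 84 passed in some, and 1 reversed: Rpl35 stood at 0.12 (edgeR adjusted p = 0.0282) without all libraries numbered 2. The 7 genes whose change differed from 10 d became 62 with DESeq2, 1 with RLE scaling, 0 with library sizes alone, 43 without a filter and 31 with a replicate block, 0 without all libraries numbered 1, 145 without those numbered 2 and 0 without those numbered 3, and ran from 0 to 82 without single libraries. Without all libraries numbered 3, 3 synthetases rose. The main fit did not pair libraries by replicate number. Deviations of same-numbered libraries correlated at 0.0063, 0.0831 and 0.0514, and those of differently numbered libraries at -0.0949 to 0.0595. The replicate block gave 5734 calls, and whether the numbers mark pairs cannot be told from these values. Depth limits genes under about 0.3 CPM, where 3 counts or fewer stand in a library. The causes were not tested.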
